A study of Mus musculus with 6 samples.

Results

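The miR-181 family was followed through all 10 of its mature arms in the count tables, among 1836 microRNAs (miRNAs) and 498 tRNA-derived small RNAs (tsRNAs). The members were every listed name starting with miR-181a, miR-181b, miR-181c or miR-181d, 4 arms from the 5p side of the precursor hairpin and 6 from the 3p side.

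Small RNAs were sequenced from the tissue behind the neural retina (retinal pigment epithelium or RPE, choroid and sclera) of male mice aged 7 to 8 weeks. In the choroidal neovascularization (CNV) group, eyes had been given 25 burns around the optic disc from a laser of 532 nm, at 100 mW for 0.1 s over 50 µm each, and were removed 7 days later. In the control group, eyes came from mice of the same age that had received no laser. Each group had 3 libraries, each made from a pool of 4 eyes, so a value is an average over eyes and over all cell types in the layers. The labels name neither the strain nor whether different pools held different mice, so the p-values below reflect the spread among the pools, which may be partly technical. Values are given for replicates 1, 2 and 3 in that order.

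A miRNA precursor is a folded hairpin whose arms are cut out as short RNAs. One arm is usually kept in the silencing complex and the other, the passenger, is mostly lost. The kept arm finds its target mRNAs mainly by its seed, bases 2 to 8 from the 5′ end, so arms with the same seed have overlapping targets. The miR-181 5p arms are known from lymphocyte development, where miR-181a raises the sensitivity of the T cell receptor, from vascular endothelium, where miR-181b dampens NF-κB signalling, and from neurons of the inner retina, where miR-181a and miR-181b restrain the making and turnover of mitochondria.

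The sequences of all 10 names were found in RefSeq (build GRCm38.p6), where the prefix mmu stands for mouse. They are shown because shared seeds and near-identical bodies decide which members can be told apart by their reads. The kept arms come first, 5′ to 3′, with the seed in capitals.
mmu-miR-181a-5p: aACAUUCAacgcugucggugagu
mmu-miR-181b-5p: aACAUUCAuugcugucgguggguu
mmu-miR-181c-5p: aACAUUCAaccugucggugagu
mmu-miR-181d-5p: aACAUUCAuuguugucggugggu
All 4 carried the seed ACAUUCA, which no mature miRNA outside the family had in that table. Counting substitutions, insertions and deletions over the full sequences, miR-181a-5p and miR-181c-5p differed by 1 edit, miR-181b-5p and miR-181d-5p by 2, and every other pair by 4 or 5. The number of mismatches allowed in mapping is not given, so reads could have passed between miR-181b-5p and miR-181d-5p, which differ by a substituted base and an extra 3′ base. The edit between miR-181a-5p and the much rarer miR-181c-5p is a missing base, which an allowance for mismatches alone does not cover. Whether gaps were allowed is not given either. No member had counts identical to those of another listed small RNA in all libraries.

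The passenger arms are shown because they tell genes apart that make the same 5p arm.
mmu-miR-181a-1-3p: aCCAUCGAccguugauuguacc
mmu-miR-181a-2-3p: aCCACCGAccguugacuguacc
mmu-miR-181b-1-3p: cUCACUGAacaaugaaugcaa
mmu-miR-181b-2-3p: cUCACUGAucaaugaaugcaaa
mmu-miR-181c-3p: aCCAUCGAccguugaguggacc
mmu-miR-181d-3p: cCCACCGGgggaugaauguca
The seed of miR-181a-1-3p was also that of miR-181c-3p, and both miR-181b 3p arms shared another. By the same count of edits, the miR-181b 3p arms differed by 2. The arm miR-181a-1-3p differed by 2 from miR-181a-2-3p and by 2 from miR-181c-3p, so reads could have passed between these arms too. The arms of the miR-181a genes lie in their hairpins as follows, with both mature arms in capitals.
Mir181a-1: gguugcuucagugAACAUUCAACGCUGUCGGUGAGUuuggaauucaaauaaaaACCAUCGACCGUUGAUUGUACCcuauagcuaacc
Mir181a-2: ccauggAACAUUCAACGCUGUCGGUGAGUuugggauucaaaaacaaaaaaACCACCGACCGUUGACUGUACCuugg

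The 6 genes form 3 clusters, each of an a and a b gene or of the c and d genes. Mir181a-1 (chr1:137966455-137966541) and Mir181b-1 (chr1:137966639-137966718) lie on the plus strand, 97 bases apart, in an exon of the long noncoding RNA gene A430106G13Rik of the GENCODE M21 annotation. Mir181a-2 (chr2:38852735-38852810) and Mir181b-2 (chr2:38853830-38853918) are also on the plus strand, 1019 bases apart, inside Nr6a1, which is read from the other strand, and outside its exons. Mir181d (chr8:84178716-84178787) and Mir181c, whose mature arms span chr8:84178885-84178945, lie on the minus strand in intronic sequence of Nanos3. The 5p arms of miR-181a and of miR-181b are therefore sums over a gene on chromosome 1 and a gene on chromosome 2, while miR-181c-5p and miR-181d-5p have 1 gene each.

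The libraries held 5321436 to 5820315 counts in CNV and 5057142 to 12839386 in control, where replicate 2 was the deepest. Levels are counts per 1000000 (CPM) of a library total adjusted by trimmed mean of M-values (TMM) factors. A small RNA is read whole, so its count was not divided by length. The efficiency of adapter ligation differs between sequences and was not corrected, which limits comparisons between members more than comparisons of 1 member between groups. Markers of RPE were present, with miR-204-5p at 4873, 3807 and 3201 CPM in CNV and 5053, 5092 and 4923 CPM in control. The photoreceptor marker miR-182-5p stood at 14407, 10781 and 24783 CPM in CNV and 35886, 22908 and 35707 CPM in control, above the RPE marker in every library.

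The family took 1.14%, 0.968% and 1.14% of all miRNA counts in the CNV libraries and 2.15%, 1.37% and 1.40% in the control libraries. The CNV libraries lay below all control libraries, and control replicate 1 stood apart at the top. By count, miR-181a-5p ranked 27th, 32nd and 34th among the miRNAs in CNV and 19th, 28th and 27th in control. The summed level of the 4 kept arms was 11455, 8884 and 10051 CPM in CNV, against 17767, 11719 and 13317 CPM in control. As means this was 10130 ± 1288 CPM in CNV and 14267 ± 3134 CPM in control (SD, n = 3 each), a ratio of 0.710. The log2 of that ratio, -0.49, was -0.30 without control replicate 1 and -0.72 without control replicate 2. No p is given for the sum, since it is a score over chosen members.

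The order of the levels was led by miR-181a-5p, followed by miR-181b-5p, miR-181d-5p and miR-181a-1-3p, and the ranges of these neighbours over the 6 libraries did not touch. The passenger miR-181a-1-3p (155 to 252 CPM) was thus above the kept arm miR-181c-5p (71.7 to 150 CPM). The range of miR-181c-5p overlapped that of the next arm, miR-181a-2-3p (72.1 to 91.7 CPM), which was the higher of the pair in CNV replicate 2. Below them came miR-181c-3p, miR-181b-1-3p, miR-181b-2-3p and miR-181d-3p, again with separate ranges.

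**Figure D1:**
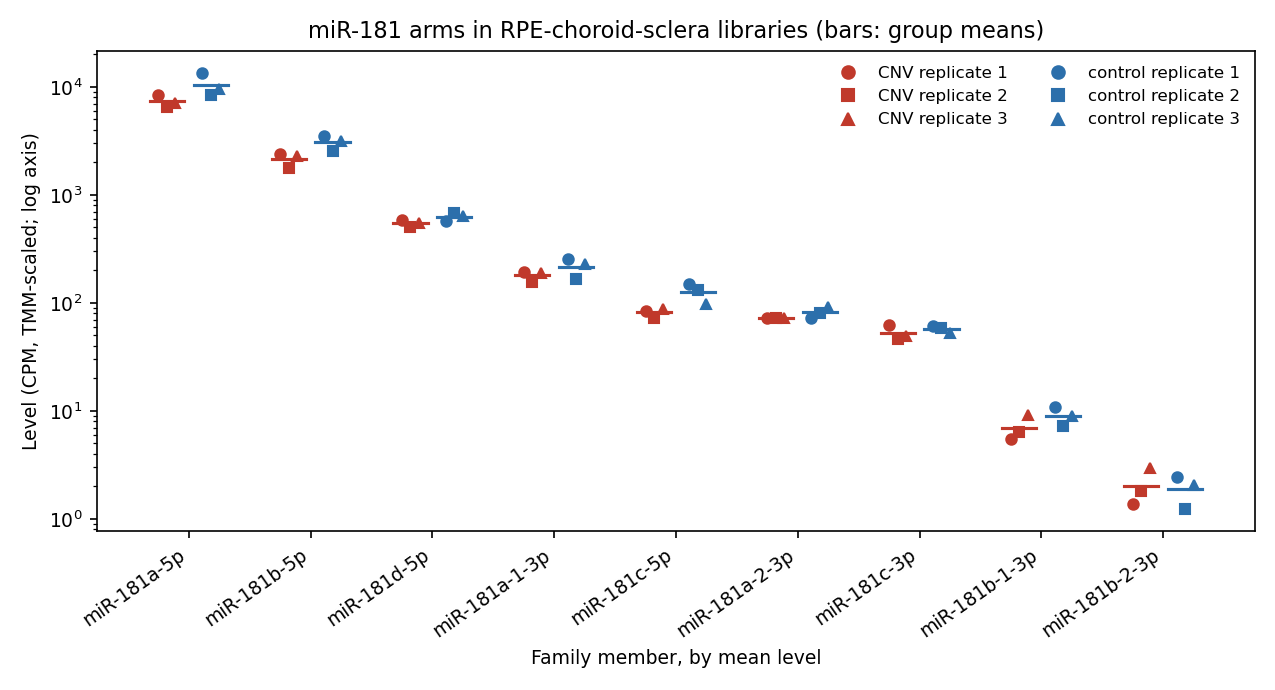
Level of 9 miR-181 arms (x axis, ordered by mean level) in each library, in TMM-scaled CPM on a log axis, with CNV left of control, points for libraries and bars for group means; miR-181d-3p, at 0 counts in 3 libraries, is not drawn. Levels ran from 6526 to 13529.6 CPM for miR-181a-5p to 1.22 to 2.92 CPM for miR-181b-2-3p, and the groups did not overlap for miR-181b-5p and miR-181c-5p.

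Whether the family differs between CNV and control tissue was tested with edgeR's quasi-likelihood test over all 997 small RNAs with enough reads, adjusted by the Benjamini-Hochberg method at a threshold of 0.05. The kept arms of miR-181a, miR-181b and miR-181c were 1.42-fold, 1.43-fold and 1.56-fold lower in CNV, and none of these differences passed the test. Of the 9 members tested, 0 were called, where 0.301% of all tested small RNAs were. DESeq2 and limma-voom also called 0 members, and DESeq2 gave no adjusted p for miR-181b-2-3p. At an unadjusted p under 0.05 those 3 kept arms were lower and no member was higher, 3 of 9 against 6.92% of all tested small RNAs that were lower at that level. The number of lower members depended on single libraries. It was 1 without CNV replicate 2, 1 without control replicate 1 and 4 without control replicate 2. The kept arms of miR-181a and miR-181b come from the same clusters, so these members are not independent of each other. Among the 541 miRNAs tested in the same fit, 49 were lower at an unadjusted p under 0.05. The median log2 fold change of the tested members was -0.27, against 0.05 over all tested small RNAs and 0.015 over the tested miRNAs. In bulk tissue, fewer cells of a type and less RNA per cell cannot be told apart.

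The level of mmu-miR-181a-5p, the arm most studied in T cells and retina, was 8421, 6526 and 7115 CPM in CNV and 13529.6, 8358 and 9455 CPM in control. The groups overlapped by a narrow margin, since CNV replicate 1 lay above control replicate 2, and control replicate 1 was far above the rest. The log2 fold change was -0.51 (SE 0.21), with an adjusted p of 0.257 in edgeR's quasi-likelihood test. Without control replicate 1 it was -0.28 (adjusted p 0.439 in edgeR), and over all left-out libraries it ran from -0.75 to -0.28.

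The level of mmu-miR-181b-5p, the arm linked to NF-κB signalling in endothelium, was 2370.2, 1779 and 2303 CPM in CNV, against 3511, 2553 and 3132 CPM in control. The highest CNV pool was below the lowest control pool. The log2 fold change was -0.51 (SE 0.18, adjusted p 0.218 in edgeR's quasi-likelihood test).

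The level of mmu-miR-181c-5p, which is made from the chromosome 8 cluster, was 84.2, 71.7 and 88.0 CPM in CNV, against 150 (replicate 1), 131 and 98.2 CPM in control. The pools of the groups did not overlap here either, with control replicate 3 closest to the CNV pools. The log2 fold change was -0.64 (SE 0.20, adjusted p 0.177 in edgeR's quasi-likelihood test), the largest in size among the 9 tested members with all 6 libraries, though not without control replicate 2, where it was -0.72 against -0.75 for miR-181a-5p. DESeq2 gave -0.67 with an adjusted p of 0.0568.

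Its cluster partner mmu-miR-181d-5p was at 579, 507 and 545 CPM in CNV and 576, 676 and 631 CPM in control. Here CNV replicate 1 lay just above control replicate 1, which was the lowest control pool for this arm and the highest for the other 3 kept arms. The log2 fold change was -0.21 (SE 0.15, adjusted p 0.547 in edgeR's quasi-likelihood test).

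Among the passenger arms the groups overlapped in every case. The arm miR-181a-1-3p was at 192, 155 and 191 CPM in CNV and 252, 167 and 229 CPM in control (log2 fold change -0.27, SE 0.20). The arm miR-181a-2-3p stayed close together in CNV, at 73.0, 72.8 and 73.1 CPM, and was at 72.1, 80.2 and 91.7 CPM in control (log2 fold change -0.16, SE 0.16). The passenger of miR-181c, miR-181c-3p, was at 61.9, 46.2 and 49.7 CPM in CNV and 61.6, 58.2 and 52.3 CPM in control (log2 fold change -0.13, SE 0.18). These values moved by over 1.5 times with single libraries left out. That of miR-181a-1-3p was -0.14 without control replicate 1 and -0.53 without control replicate 2, and that of miR-181c-3p was -0.07 without control replicate 1 and -0.27 without CNV replicate 1. That of miR-181a-2-3p ran from -0.26 without control replicate 2 to -0.11 without control replicate 3.

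The miR-181b and miR-181d passengers were rare. For miR-181b-1-3p there were 28, 32 and 53 counts in CNV and 63, 100 and 44 counts in control (log2 fold change -0.35, SE 0.28), with -0.68 without CNV replicate 3 and -0.18 without control replicate 1. For miR-181b-2-3p there were 7, 9 and 17 counts in CNV and 14, 17 and 10 counts in control (log2 fold change 0.20, SE 0.42), the only member tested with a value above 0. Its value turned to -0.25 without CNV replicate 3 and to -0.22 without control replicate 2. The miR-181d passenger had 0, 4 and 0 counts in CNV and 1, 4 and 0 counts in control and was not tested. A count of 0 allows up to 0.584 CPM in CNV replicate 1, 0.516 in CNV replicate 3 and 0.613 in control replicate 3, from counting error only.

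**Figure D2:**
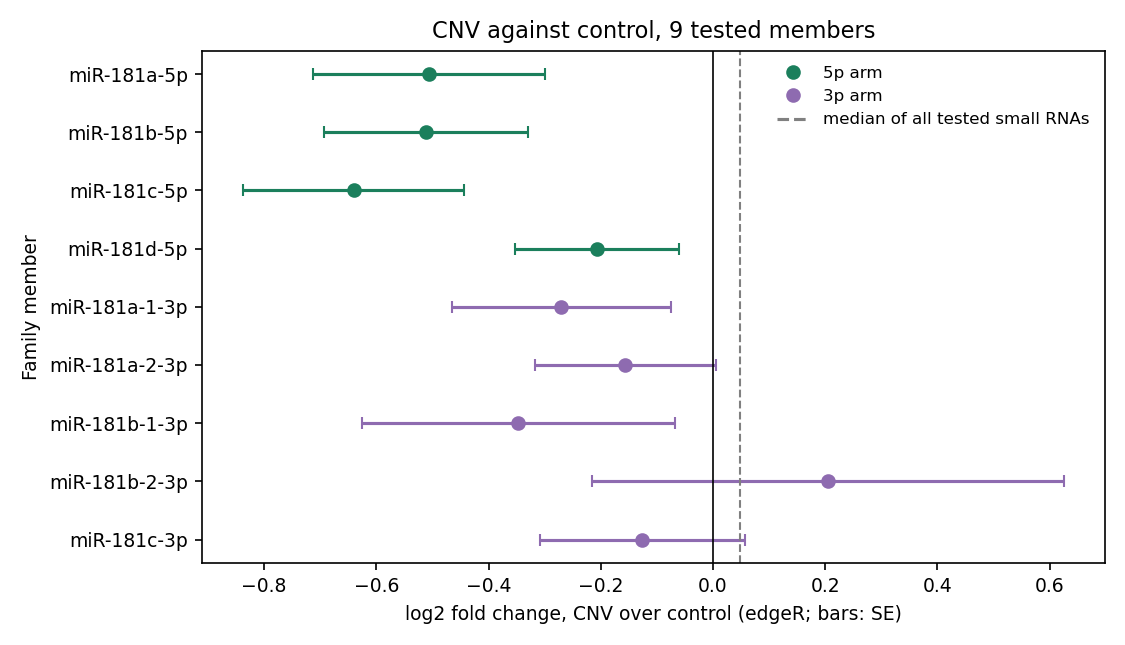
Log2 fold change of CNV over control (x axis) for the 9 tested members (y axis), with bars for the standard error, kept 5p arms above and passenger 3p arms below; the dashed line is the median of all tested small RNAs, 0.05. The values of miR-181a-5p, miR-181b-5p and miR-181c-5p lie between -0.64 and -0.51, and those of the other members between -0.35 and 0.20, with none past the test.

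The scaling affects how far the groups separate. Under TMM, 2 of the 9 tested members had all CNV pools below all control pools, where 8.93% of all tested small RNAs did. With CPM by total counts alone, 5 of 9 did, namely the 4 kept arms and miR-181a-2-3p, against 12.8% of all tested small RNAs. That scaling also moved the median log2 fold change of all tested small RNAs to -0.11, a shift toward lower values that the members shared, and with it the median of the members was -0.42. With total counts, miR-181a-5p was at 7436, 6161 and 7315 CPM in CNV and 15008, 9055 and 9156 CPM in control, and miR-181d-5p was at 511, 479 and 561 CPM in CNV and 639, 732 and 611 CPM in control. No member was called under this scaling either, and 8 of 9 were negative under both.

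A ratio of arms within a library does not depend on the scaling, and it asks whether members differ in their difference between CNV and control. The count ratio of miR-181c-5p to its passenger miR-181c-3p was 1.36, 1.55 and 1.77 in CNV and 2.44, 2.26 and 1.88 in control. Every CNV pool had a lower ratio than every control pool, by 0.49 on the log2 scale between the group means. The two-sided exact permutation test gave p = 0.1, the smallest that 3 pools against 3 can give, and 0.5 adjusted over the 5 ratios of this kind. With any 1 library left out the difference ran from -0.60 to -0.40. Its sign could not change there, since the groups are separate. This pair was the most balanced of the family, with the passenger within 3-fold of the kept arm.

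For miR-181a the kept arm outnumbered its passengers widely. There were 43.9, 42.1 and 37.3 reads of miR-181a-5p for each read of miR-181a-1-3p in CNV and 53.6, 49.9 and 41.3 in control, with overlapping groups (difference -0.23 on the log2 scale, exact permutation p = 0.3, adjusted 0.667). Against miR-181a-2-3p the ratio was 115, 89.6 and 97.4 in CNV and 188, 104 and 103 in control (difference -0.33, exact permutation p = 0.4, adjusted 0.667). This difference rested on control replicate 1, without which it was -0.05. For miR-181b-5p over miR-181b-1-3p the ratio was 435, 279 and 253 in CNV and 323, 355 and 349 in control (difference -0.13, exact permutation p = 0.6, adjusted 0.75). The passenger arms together made up 2.83%, 3.09% and 3.14% of the family's counts in CNV and 2.20%, 2.61% and 2.80% in control, slightly higher in every CNV pool than in any control pool. The margin was narrow, at 2.83% in CNV replicate 1 against 2.80% in control replicate 3, and this share was not tested.

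The passengers also separate the chromosome 1 and chromosome 2 clusters, as far as mapping told these similar arms apart. For each read of miR-181a-2-3p there were 2.63, 2.13 and 2.61 reads of miR-181a-1-3p in CNV and 3.50, 2.09 and 2.49 in control, so the arm from chromosome 1 was the more abundant in every library. The groups overlapped (difference -0.11 on the log2 scale, exact permutation p = 0.9, adjusted 0.9), and without control replicate 1 the sign turned to 0.10. For miR-181b the arm from chromosome 1 was also ahead in every library, by 4, 3.56 and 3.12 times in CNV and 4.50, 5.88 and 4.40 times in control. This ratio rests on at most 17 reads of miR-181b-2-3p per library and was not tested.

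Among the kept arms themselves, miR-181a-5p was 3.55, 3.67 and 3.09 times as abundant as miR-181b-5p in CNV and 3.85, 3.27 and 3.02 times in control, a difference of 0.03 on the log2 scale (exact permutation p = 0.9, adjusted 0.9). Of the 6 pairs of kept arms, 0 had separate groups. With all 6 libraries the widest difference was that of the cluster partners miR-181c-5p over miR-181d-5p, at 0.145, 0.141 and 0.162 in CNV and 0.261, 0.194 and 0.156 in control (difference -0.42, exact permutation p = 0.2, adjusted 0.84). It was -0.22 without control replicate 1, and without control replicate 2 it was -0.43, less than for miR-181b-5p over miR-181d-5p (-0.49) and miR-181a-5p over miR-181d-5p (-0.48). The other 5 had unadjusted p of 0.3 to 0.9 in the same exact test. An exact permutation test of 3 pools against 3 cannot pass the threshold, so these values do not show that the members act alike.

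**Figure D3:**
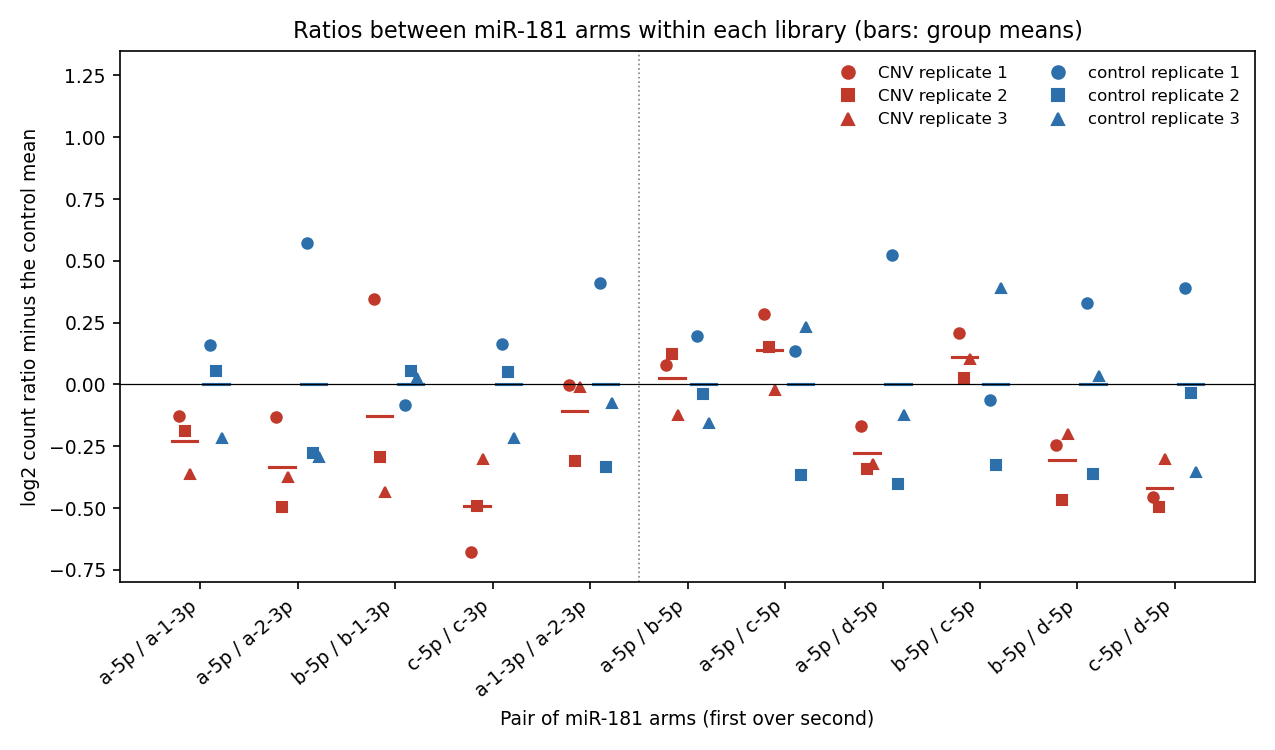
Log2 count ratio of pairs of miR-181 arms minus the mean ratio of the control libraries (y axis), for 5 ratios that involve passenger arms (left of the dotted line) and the 6 pairs of kept arms (right), with CNV left of control and bars for group means. The groups are separate only for miR-181c-5p over miR-181c-3p, and control replicate 1 is the highest control in 4 of the 5 ratios on the left.

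Marker miRNAs of cell types in or near the tissue were set beside the family, since the family is expressed in several of them. Under TMM the mean log2 level of the neuron list (10 members, among them miR-124, miR-9 and miR-138) was -0.66, -1.27 and -0.53 from the control mean in the CNV pools and 0.17, -0.33 and 0.17 in the control pools. In the same order, miR-181a-5p was at -0.28, -0.65 and -0.52 in CNV and 0.40, -0.29 and -0.11 in control, and miR-181b-5p at -0.36, -0.77 and -0.40 in CNV and 0.21, -0.25 and 0.04 in control. The lowest pool was CNV replicate 2 for every kept arm and for every marker list except the leukocyte list, so this is not particular to the neuron list. It was at -0.70 for the RPE list and -0.33 for the endothelial list. Among the control pools, replicate 2 was the lowest for the neuron list, the photoreceptor list, miR-181a-5p and miR-181b-5p. The lowest control pool was replicate 3 for miR-181c-5p (-0.34) and replicate 1 for miR-181d-5p (-0.12).

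None of the marker miRNAs was called by edgeR over all small RNAs. At an unadjusted p under 0.05, 8 of 10 neuron, 4 of 5 photoreceptor and 2 of 4 RPE markers were lower in CNV, and of 8 leukocyte markers 4 were higher and 1 was lower. Of all tested small RNAs, 6.92% were lower and 10.8% higher at that level. The median log2 fold changes were -0.90 for neuron, -0.92 for photoreceptor, -0.44 for RPE, 0.48 for leukocyte and -0.18 for the 2 endothelial markers. All members of each list had counts in every library. The summed level of the neuron markers was 8504 to 13769.9 CPM in CNV and 15416 to 22332 CPM in control, and that of the photoreceptor markers 24765 to 49532 CPM in CNV and 49398 to 75871 CPM in control. The summed level of the RPE markers was 4573 to 6546 CPM in CNV and 6841 to 7042 CPM in control. The leukocyte markers summed to 977 to 1399 CPM in CNV and 827 to 956 CPM in control, and the endothelial markers to 35449 to 42881 CPM in CNV and 35247 to 45069 CPM in control. The part of these cell types in the lower miR-181 levels was not tested.

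The most abundant markers of each list, by the rule for named miRNAs, had these log2 fold changes. They were -0.92 for miR-182-5p and -0.79 for miR-183-5p of photoreceptors, -0.60 for miR-9-5p and -1.10 for miR-124-3p of neurons, and -0.34 for miR-204-5p and -0.39 for miR-211-5p of RPE. They were 1.08 for miR-142a-5p and 0.31 for miR-342-3p of leukocytes, and -0.08 for miR-126a-3p and -0.28 for miR-126a-5p of endothelium. None of these 10 passed the test.

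**Figure D4:**
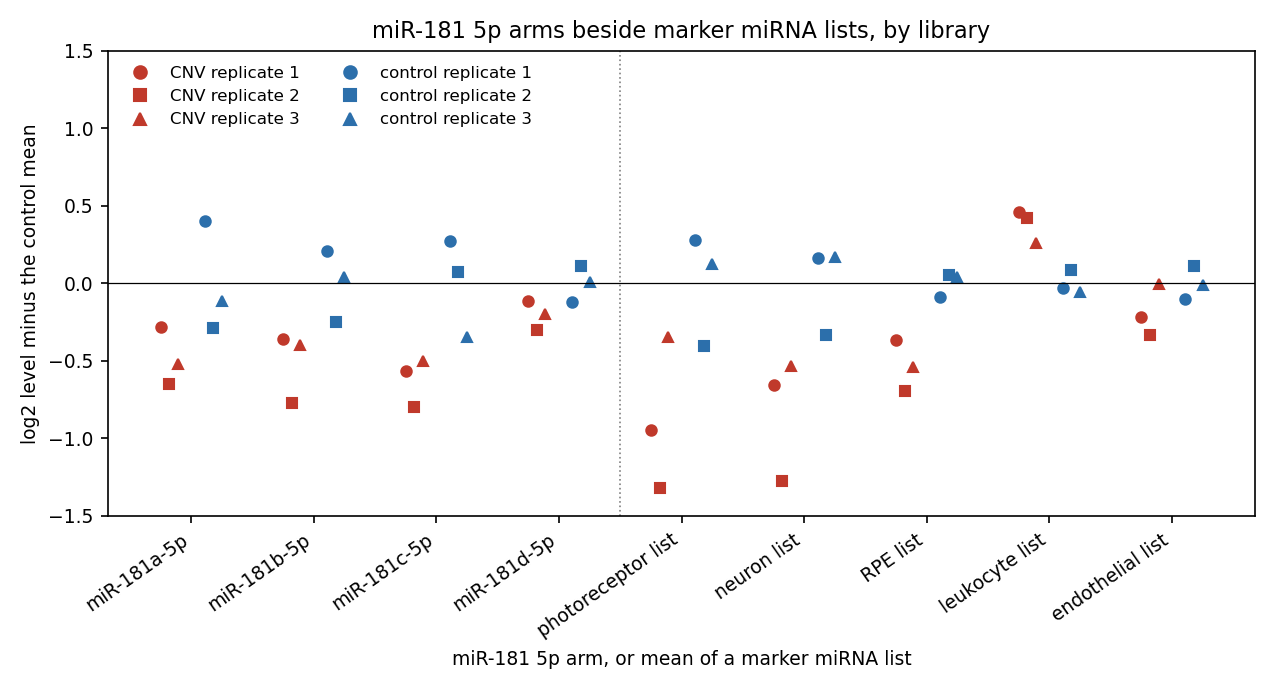
Log2 level minus the control mean (y axis) in each library for the 4 miR-181 kept arms and, right of the dotted line, the mean over each marker list, with CNV left of control. In CNV replicate 2 the neuron list is at -1.27 and miR-181b-5p at -0.77, and the leukocyte list is above all control pools in every CNV pool.

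The small RNAs whose profile over the 6 libraries was most like that of miR-181a-5p were sought among the 551 others with a mean of at least 10 CPM, by the root mean square (RMS) distance of log2 levels after centring each on its own mean. The closest were miR-344-3p (RMS distance 0.11), miR-700-5p (0.12), miR-598-3p (0.12), miR-7a-1-3p (0.13) and the tRNA fragment tiRNA-His-GTG-003 (0.13). Their log2 fold changes were -0.51, -0.39, -0.51, -0.45 and -0.58 in that order, and none passed the test. Values near that of miR-181a-5p follow from the way these 5 were chosen. At 149 CPM on average miR-598-3p was the most abundant of these 5. It was at 143, 102 and 124 CPM in CNV and 203, 139 and 184 CPM in control, with overlapping groups. Within the family, miR-181b-5p lay at a distance of 0.13 from miR-181a-5p, where only 4 of the 551 were nearer. The distance was 0.17 for miR-181a-1-3p, 0.22 for miR-181c-5p, 0.25 for miR-181c-3p and 0.29 for miR-181b-1-3p, with 12, 21, 40 and 66 of the 551 nearer. It was 0.31 for miR-181d-5p, 0.35 for miR-181a-2-3p and 0.46 for miR-181b-2-3p, with 96, 140 and 301 of the 551 nearer. On average miR-181b-1-3p (8.0 CPM) and miR-181b-2-3p (1.96 CPM) were below the 10 CPM asked of the 551. The part of counting error in their distances was not tested.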

How the data were processed

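The deposited files give, for each of 6 libraries (3 CNV, 3 control, grouped by sample title), a read count per mature miRNA and per tsRNA. Per the labels' protocols, inserts of 14 to 40 nt were selected. The submitters' processing notes name Bowtie, with no version, genome build or treatment of ambiguous reads. The deposited CPM column was treated as a score and not tested, since its miRNA and tsRNA values rest on different totals.

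Counts were analysed in R 4.3.3 with edgeR 4.0.16. filterByExpr (minimum count 10, minimum total 15) kept 997 small RNAs, which were scaled with TMM factors and tested with glmQLFTest without covariates; p-values were adjusted over all 997. Log2 levels per library used a prior count of 2. Alternatives were DESeq2 1.42.0, limma-voom (limma 3.58.1), other scalings and filters, miRNAs alone, a replicate block, and each library left out. Arm ratios were taken where every library had at least 10 counts of each arm, and tested with exact permutation tests (scipy 1.17.1). The edgeR test and the ratio code were tested on simulated data. The labels do not say what a replicate number stands for, so the numbers were used only in the replicate block.

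The members, the marker lists and the rule for named miRNAs (all members, the 2 most abundant markers of each list, and the 5 profiles nearest to miR-181a-5p) were chosen with earlier results of these data known. Sequences and gene positions are from RefSeq, build GRCm38.p6, and host genes from GENCODE M21. At these depths the rarest members rested on 0 to 17 counts per library.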

Additional observations from a re-analysis of the deposited data

How the results depend on the processing

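No member was called under any alternative except 1. Without a filter on low counts 2 of 10 were, miR-181a-5p (log2 fold change -0.60, adjusted p 0.0449 in edgeR) and miR-181c-5p (-0.73, adjusted p 0.0325). In that setting the median log2 fold change of all small RNAs was also lower, at -0.17 against 0.05 in the main fit. The cause was not tested. Over all small RNAs 3 of 997 were called, against 88 of 2334 without a filter and 0 with a minimum mean of 20 CPM (103 at an unadjusted p under 0.05). With DESeq2 40 were called, with miRNAs alone 6, and with 1 library left out 0 to 24. With the replicate block 36 were called and 0 members. The deviations of same-numbered libraries correlated at 0.29, 0.03 and 0.17, and 5 of 6 libraries correlated best with their own number (not control replicate 2). Control replicate 2 correlated at 0.15 with CNV replicate 3, and the 6 comparisons are not independent of each other. This is at most a weak hint of pairing that the labels do not state, and the numbers were not taken as pairs.

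The 8 negative fold changes kept their sign under every alternative in which the member was tested. With 1 library left out, that of miR-181b-2-3p ran from -0.25 to 0.45. The ratio differences that changed sign did so only with 1 library left out: miR-181a-5p over miR-181b-5p (-0.0515 to 0.12), over miR-181c-5p (-0.0437 to 0.26), miR-181b-5p over miR-181c-5p (-0.0509 to 0.31), miR-181b-5p over miR-181b-1-3p (-0.36 to 0.0276) and miR-181a-1-3p over miR-181a-2-3p (-0.27 to 0.10). With the 4 kept arms summed to 1 feature, the log2 fold change was -0.58 (SE 0.20) and was not called, where the median of all tested small RNAs was -0.03. Depth limits miR-181b-2-3p and miR-181d-3p most.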
